A study of Mus musculus with 8 samples.

Results

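The 7 dispersed bitter taste receptor genes of the mouse, Tas2r118, Tas2r126, Tas2r134, Tas2r135, Tas2r137, Tas2r138 and Tas2r143, lie outside the large Tas2r cluster of distal chromosome 6. They were followed through open chromatin in sorted medullary thymic epithelial cells (mTEC). Every peak was taken that the authors' merged annotated peak table gave to one of these genes as the nearest gene, which came to 23 of 74090 peaks for 7 of the 18215 genes with a peak. The assay was ATAC-seq, in which a transposase cuts accessible DNA and tags the cut ends for sequencing. Cells came from thymus of C57BL/6 mice, digested with enzymes, enriched on Percoll and sorted by flow cytometry, and all 4 populations were CD45 negative and Epcam positive. The gate for mTEC-IV took L1cam positive cells with low MHCII and no Itgb4, that for mTEC-III Ly6D positive cells, that for mTEC-II cells high in MHCII, and that for mTEC-I Itgb4 positive cells with low MHCII. Each population had 2 libraries. Whether the 2 libraries stem from different animals is not stated in the labels, and the tests below therefore weigh differences against the spread between libraries, which may be technical.

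Bitter taste receptors are G protein-coupled receptors. In taste cells a bound ligand acts through gustducin, phospholipase C beta 2 and the release of stored calcium to open the cation channel Trpm5. Tuft cells, chemosensory cells of mucosal epithelia, use the same cascade, and tuft-like cells that carry bitter receptors are known in the thymic medulla. The human counterpart of Tas2r138 is TAS2R38, the receptor for phenylthiocarbamide, and that of Tas2r118 is TAS2R16, a receptor for beta-glucopyranosides such as salicin. A peak reports accessible DNA and not transcription of the receptor.

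In these libraries 9 of the 18 peaks that could be tested, at 6 of the 7 genes, were more open in mTEC-IV than in the mean of the other 3 populations, and 8 of these 9 lay within 10 kb of the start codon. Of all 59943 peaks tested 16.5% were higher in mTEC-IV and 19.0% lower, and all 9 peaks passed the filter on low values only through their mTEC-IV libraries. The sums of Tas2r137 and Tas2r138 showed the widest gaps. Tas2r135 differed: its single peak was open in mTEC-II and mTEC-III and nearly closed in mTEC-IV and mTEC-I. Of the distal peaks of Tas2r118 and Tas2r134, 4 were lower in mTEC-IV, where 26.4% of all tested peaks beyond 10 kb were. For 2 of these, those of Tas2r118 at 28226 and 55866 bp, the call was lost in 7 of 21 and 8 of 18 alternatives.

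Depth ranged from 3606436 to 10374623 tags per library, and the share of tags in merged peaks ranged from 14.2% to 18.1% in mTEC-IV, from 8.4% to 11% in mTEC-III, from 15.3% to 17.8% in mTEC-II and was 19.7% in both mTEC-I libraries. Values below are tags per 10000000 after scaling by the trimmed mean of M values (TMM), called scaled tags. The gate genes Itgb4, L1cam and Ly6d were not called between mTEC-IV and the mean of the other 3 populations, with log2 differences of -0.34, 0.29 and 0.01. Itgb4 was called lower in mTEC-IV than in mTEC-I, and higher in mTEC-I than in the mean of the other 3. Of 14 genes with a peak in a list of tuft-like markers, 11 were higher in mTEC-IV and none was lower by limma with Benjamini-Hochberg adjustment (18.0% of all genes higher, 13.9% lower). Of these 14, 3 passed the filter on low values only through their mTEC-IV libraries and could hardly have been called lower there. Pou2f3, the POU factor that tuft cells require, was higher by 1.19 on the log2 scale. The summed signal of the tuft-like list was 1899 and 1897 scaled tags in mTEC-IV, 888 and 895 in mTEC-III, 780 and 809 in mTEC-II, with 845 and 839 in mTEC-I. Because these are bulk libraries, a larger share of receptor-bearing cells and more open chromatin per cell cannot be told apart.

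Markers of cells that a sort can let through were also read. Of 7 thymocyte markers, Cd3g and Cd8a had no peak and Rag1 was listed at 0 in every library. Cd4 had 24.4 and 17.8 scaled tags in mTEC-IV, against 0 and 0 in mTEC-III, 0 and 1.56 in mTEC-II, with 0.879 and 0 in mTEC-I, and Lck was also higher in mTEC-IV while Bcl11b was lower. So of 4 thymocyte markers tested 2 were higher and 1 lower in mTEC-IV (18.0% and 13.9% of all genes). Of the 4, 2 passed the filter on low values only through their mTEC-IV libraries and could hardly have been called lower there. The summed thymocyte signal was 166.6 and 174.2 scaled tags in mTEC-IV, 134.2 and 157.5 in mTEC-III, 199.3 and 220.3 in mTEC-II, with 293.5 and 280.3 in mTEC-I. Of the B cell markers Ms4a1 and Pax5 had no peak, and Cd79a had 28.0 and 25.2 scaled tags in mTEC-IV, against 3.36 and 7.20 in mTEC-III, 4.67 and 0.774 in mTEC-II, with 0.879 and 0 in mTEC-I. Cd79a, too, passed the filter only through its mTEC-IV libraries. Of 7 myeloid and dendritic markers Itgax, Csf1r and Lyz2 had no peak, and of the 4 tested 1, Flt3, was higher in mTEC-IV and none was lower. The summed signal of this list was 176.0 and 175.8 in mTEC-IV, 166.1 and 189.4 in mTEC-III, 212.1 and 246.8 in mTEC-II, with 115.6 and 148.4 in mTEC-I. In mTEC-IV no mesenchymal or endothelial marker was higher, and 2 of 4 and 3 of 5 tested were lower. Of 8 thymic epithelial markers tested, 2 were lower by limma, among them the regulator Foxn1, while 1, Epcam, was higher and 5 were not called. In this comparison 13.9% of all genes were lower and 18.0% higher. The part of these markers in the results that follow was not tested.

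The 7 receptors sat at 4 places. In mm9 coordinates Tas2r118 started at position 23920060 of chromosome 6 on the minus strand. Tas2r137 started at 40441237 on the plus strand and Tas2r138, 122.1 kb further, at 40563309 on the minus strand of the same chromosome. Tas2r143 at 42350237, Tas2r135 at 42355528 and Tas2r126 at 42384534 followed each other on the plus strand of chromosome 6, with 5.3 kb and 29.0 kb between neighbouring starts. Tas2r134 started at 51483031 on the plus strand of chromosome 2. Receptors of this family are encoded in a single exon. The annotated lengths, from 882 bp (Tas2r143) to 1002 bp (Tas2r137), were all multiples of 3 and hold no UTR, so distances below are measured from the start codon.

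Because the mTEC-IV peaks crowded the start codons, the 300 bases around the starts are shown for 4 of the 7 genes, taken from RefSeq on GRCm38.p6 from 250 bases before the start to 50 after it. All 7 members had an entry. Capitals mark the start codon and the letters TTTGCAT, the complement of ATGCAAA, which is most of the octamer that POU factors bind. Tas2r118 (chr6:23970011-23970310, minus strand) and Tas2r134 (chr2:51627261-51627560, plus strand) had these letters inside a peak of mTEC-IV. Tas2r143 (chr6:42399988-42400287, plus strand) had such a peak but not the letters, and Tas2r135 (chr6:42405279-42405578, plus strand) had the letters but no peak.
Tas2r118: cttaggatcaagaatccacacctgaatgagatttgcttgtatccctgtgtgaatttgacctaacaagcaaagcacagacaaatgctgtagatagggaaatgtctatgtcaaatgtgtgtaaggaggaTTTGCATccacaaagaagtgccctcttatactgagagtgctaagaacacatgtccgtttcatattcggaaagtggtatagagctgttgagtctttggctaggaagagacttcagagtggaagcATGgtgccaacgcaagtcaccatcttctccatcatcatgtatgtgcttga
Tas2r134: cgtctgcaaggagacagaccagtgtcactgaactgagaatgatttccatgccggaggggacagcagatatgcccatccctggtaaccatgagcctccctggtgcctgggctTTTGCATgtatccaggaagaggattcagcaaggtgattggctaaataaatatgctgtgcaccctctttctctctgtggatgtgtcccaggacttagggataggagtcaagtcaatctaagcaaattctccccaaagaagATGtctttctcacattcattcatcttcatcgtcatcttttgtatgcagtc
Tas2r143: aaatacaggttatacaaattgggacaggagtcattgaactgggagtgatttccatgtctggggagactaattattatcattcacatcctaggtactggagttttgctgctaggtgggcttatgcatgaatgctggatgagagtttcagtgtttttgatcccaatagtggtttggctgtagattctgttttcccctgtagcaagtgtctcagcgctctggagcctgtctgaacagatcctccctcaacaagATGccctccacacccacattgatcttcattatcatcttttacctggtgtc
Tas2r135: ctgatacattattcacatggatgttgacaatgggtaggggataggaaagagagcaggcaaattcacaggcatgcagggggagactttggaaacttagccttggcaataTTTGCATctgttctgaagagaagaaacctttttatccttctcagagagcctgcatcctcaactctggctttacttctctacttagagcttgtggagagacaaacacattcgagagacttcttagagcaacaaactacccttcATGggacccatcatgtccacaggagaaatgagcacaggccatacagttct
ATGCAAA, searched on both strands, was found in 6 of the 7 windows, all but that of Tas2r143, and each time it read as TTTGCAT in the direction of the gene. It began 123 bases upstream of the start codon in Tas2r118, 139 in Tas2r134, 142 in Tas2r135, 191 in Tas2r137, 193 in Tas2r126 and 249 in Tas2r138. Of all 32851 promoter windows of the same length 4.63% held the motif on either strand and 2.37% held it in the direction of the gene. The member windows were poor in GC, from 39.7% to 49.0% against a median of 52.7% over all windows, and held 0 to 4 CpG against a median of 7. Among the 8994 windows in that GC range 6.89% held the motif, and among the 1915 windows that, like these, have ATG at the annotated start 7.05% did. It was found on either strand in 4 of 10 windows of other Tas2r genes with a merged peak and in 2 of 14 of those without one. In the direction of the gene it was in 2 of the 10 and in 2 of the 14. Measured from the start codon, which was taken to be the same base in both builds, the motif lay inside the nearest peak for Tas2r118, Tas2r126 and Tas2r134, at 26, 59 and 52 bases from its centre. For Tas2r137 and Tas2r138 it lay 112 and 119 bases from the centre and outside the peak. TATAAA, searched in the same way, was in none of the 7 windows and in 13.6% of all windows. The letters are a description and no evidence of binding.

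Summed over all its peaks, Tas2r137 had 71.8 and 70.3 scaled tags in the mTEC-IV libraries, against 10.1 and 10.3 in mTEC-III, 1.17 and 1.55 in mTEC-II, with 1.31 and 0.533 in mTEC-I. Tas2r138 had 77.6 and 87.6 in mTEC-IV, 25.2 and 21.6 in mTEC-III, 15.1 and 21.01 in mTEC-II, with 10.1 and 10.7 in mTEC-I. Both genes followed the order mTEC-IV, mTEC-III, mTEC-II, mTEC-I by mean, with mTEC-IV far above every other library, while mTEC-II and mTEC-I of Tas2r137 overlapped. Tas2r126 had 51.0 and 50.4 in mTEC-IV, against 15.1 and 10.3 in mTEC-III, 4.67 and 10.1 in mTEC-II, with 10.9 and 10.7 in mTEC-I. Tas2r118 had 109.9 and 115.0 in mTEC-IV, 52.0 and 64.8 in mTEC-III, 43.1 and 25.7 in mTEC-II, with 72.3 and 72.1 in mTEC-I. For Tas2r126 the other 3 populations lay close together, whereas for Tas2r118 mTEC-I came second and mTEC-II last.

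Against the mean of the other 3 populations on the log2(scaled tags + 1) scale, mTEC-IV was higher by 4.30 ± 0.47 (SE) for Tas2r137 (limma adjusted p = 7.65e-07). The difference was 2.27 ± 0.28 for Tas2r138 (adjusted p = 3.66e-06), 2.26 ± 0.37 for Tas2r126 (adjusted p = 7.87e-05) and 1.10 ± 0.20 for Tas2r118 (adjusted p = 0.000231). These calls passed under each of the alternative settings that tested them. With Tas2r134, 5 of the 7 genes were higher in mTEC-IV and 1, Tas2r135, was lower, where 18.0% of the 17679 genes tested were higher and 13.9% lower. The median difference was 1.10 over the members and 0.10 over all genes tested. Tas2r137 reached the filter on low values only through its mTEC-IV libraries, so its passing and its difference are not separate facts. The other sums are not free of such a choice. Of the 23 peaks that enter the 7 sums, the authors' own peak calling found 16 in mTEC-IV libraries and in no other (20.1% of all merged peaks).

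**Figure D1:**
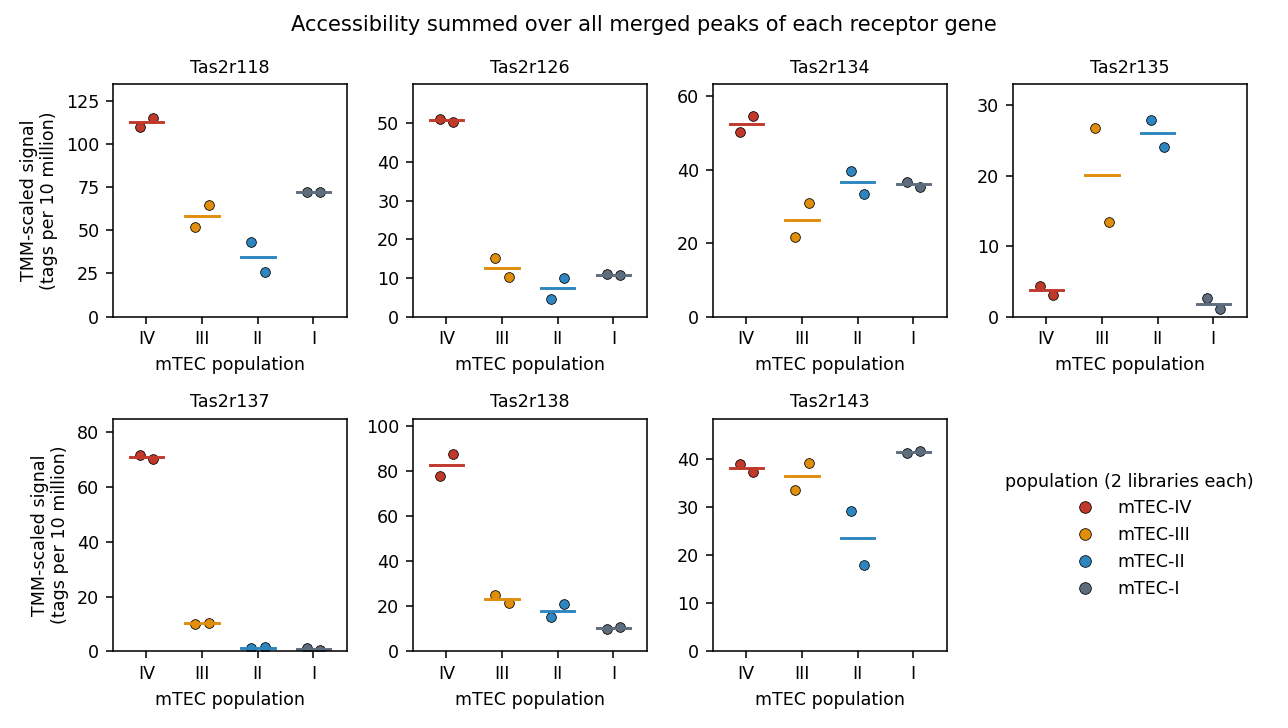
Summed accessibility of each of the 7 receptor genes, in scaled tags per 10000000 on a y axis of its own that starts at 0, by population (mTEC-IV, mTEC-III, mTEC-II and mTEC-I from left to right). Points are single libraries and lines are the mean of 2. Tas2r137, Tas2r138, Tas2r126 and Tas2r118 are highest in mTEC-IV, Tas2r135 is highest in mTEC-II, and mTEC-IV and mTEC-III overlap for Tas2r143.

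Set against each population in turn, mTEC-IV was higher than mTEC-III, mTEC-II and mTEC-I for 4 genes, Tas2r118, Tas2r126, Tas2r137 and Tas2r138, where 6.15% of all genes were higher in all 3 pairs. For Tas2r137 the log2 difference was 2.69 over mTEC-III (limma adjusted p = 0.00214), 4.94 over mTEC-II and 5.26 over mTEC-I. For Tas2r138 it was 1.78 over mTEC-III (adjusted p = 0.000957), 2.146 over mTEC-II and 2.88 over mTEC-I, and for Tas2r126 it was 1.94, 2.70 and 2.13. For Tas2r118 it was 0.94 over mTEC-III (adjusted p = 0.00836), 1.72 over mTEC-II and 0.63 over mTEC-I (adjusted p = 0.0462). In all, 5 members were higher and 1 lower in mTEC-IV than in mTEC-III (12.7% and 9.67% of all genes), 4 higher and 1 lower than in mTEC-II (13.3% and 11.4%), and 4 higher than in mTEC-I (20.8%). The pairs share the mTEC-IV libraries. Leaving out mTEC-IV library 1 or 2, with the same genes tested, ended the calls over mTEC-III of Tas2r118, Tas2r126, Tas2r134 and Tas2r135, with adjusted p from 0.0509 to 0.127, and without library 1 that of Tas2r137 too (adjusted p = 0.0525). Leaving out mTEC-III library 1 ended the calls of Tas2r118, Tas2r134 and Tas2r135 in that pair, with adjusted p of 0.0642, 0.109 and 0.0912. The call of Tas2r118 over mTEC-I was lost in 12 of 23 alternatives.

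Tas2r134, the member on chromosome 2, had 50.3 and 54.6 scaled tags in mTEC-IV, 21.8 and 30.9 in mTEC-III, 39.6 and 33.5 in mTEC-II, with 36.8 and 35.2 in mTEC-I. Both mTEC-IV libraries were above the other 6, by a smaller margin than in the 4 genes above. The difference from the mean of the other 3 populations was 0.68 ± 0.24 (limma adjusted p = 0.0341), and this call was lost in 11 of 23 alternatives, with adjusted p up to 0.228. Between pairs it was called over mTEC-III (0.98, adjusted p = 0.0187) and not over mTEC-II (0.51, adjusted p = 0.221) or mTEC-I (0.53, adjusted p = 0.163). Tas2r143 had 38.8 and 37.3 in mTEC-IV, 33.6 and 39.1 in mTEC-III, 29.1 and 17.9 in mTEC-II, with 41.2 and 41.7 in mTEC-I. Its mTEC-IV and mTEC-III libraries overlapped, below both mTEC-I libraries and above both mTEC-II libraries, and the difference of mTEC-IV from the rest was 0.22 ± 0.25 (adjusted p = 0.548). The sum of Tas2r134 put together peaks that were called in opposite directions. That of Tas2r143 put together a peak that was higher in mTEC-IV, 241 bp upstream, and one that was not called, 3625 bp upstream.

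Per kb of peak, the scale on which genes can be compared, the mean level in mTEC-IV was 273.4 scaled tags for Tas2r137, 202.5 for Tas2r138, 110.5 for Tas2r143, 97.4 for Tas2r118, 92.7 for Tas2r126, 71.4 for Tas2r134 and 20.7 for Tas2r135. In mTEC-I the order was another one, with 120.4 for Tas2r143, 62.5 for Tas2r118, 49.1 for Tas2r134, 25.4 for Tas2r138, 19.8 for Tas2r126, 10.3 for Tas2r135 and 3.55 for Tas2r137. Tas2r137 thus held the densest signal of the 7 in mTEC-IV and the sparsest in mTEC-I. Tas2r135 headed the order in mTEC-II, with 155.4 and 134.1 per kb in its libraries. In mTEC-III its libraries, with 149.2 and 74.3 per kb, overlapped those of Tas2r143, with 97.6 and 113.7.

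The 23 peaks fell into 9 within 1 kb of a start codon, 7 at 1 to 10 kb and 7 beyond 10 kb, and 14 were annotated as intergenic and 9 as promoter. They were 119 to 310 bp wide, and held 13 to 337 read ends over all 8 libraries, so that the low ones rest on few reads. Peaks within 1 kb made up 39.1% of the members' peaks and 24.1% of all merged peaks, and 6 of the 7 genes had at least 1, all but Tas2r135. The authors' own peak calling, made in each library alone, found 16 of the 23 in mTEC-IV libraries and in no other (20.1% of all merged peaks), and 5 in no mTEC-IV library (45.5%). Of the 23 peaks 18 passed the filter on low values, and 10 of these passed only through mTEC-IV, so the counts of called peaks give no support of their own. Among the 18, 9 were higher in mTEC-IV than the mean of the other 3 and 5 were lower, where 16.5% of 59943 peaks were higher and 19.0% lower.

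Within 1 kb of the start codon the peak of Tas2r138 centred 365 bp upstream (chr6:40563590-40563759, mm9) was the tallest. It had 58.2 and 58.3 scaled tags in mTEC-IV, against 8.39 and 8.24 in mTEC-III, 5.83 and 5.45 in mTEC-II, with 2.19 and 0 in mTEC-I. The peak of Tas2r137 at 300 bp upstream (chr6:40440872-40441002) had 33.8 and 39.9 in mTEC-IV, 5.03 and 3.08 in mTEC-III, 1.17 and 0.774 in mTEC-II, with 0.879 and 0.533 in mTEC-I. In both peaks each mTEC-IV library exceeded every other library several times over. The differences from the mean of the other 3 populations were 3.63 ± 0.50 for Tas2r138 (limma adjusted p = 7.37e-05) and 3.89 ± 0.52 for Tas2r137 (adjusted p = 6.4e-05).

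The promoter peaks of Tas2r118, Tas2r134 and Tas2r143 were lower and almost empty outside mTEC-IV. Tas2r118, 94 bp upstream (chr6:23920090-23920218), had 22.99 and 16.3 scaled tags in mTEC-IV, 3.36 and 3.08 in mTEC-III, 0 and 0 in mTEC-II, with 0 and 0.533 in mTEC-I. Tas2r134, 188 bp upstream (chr2:51482784-51482902), had 11.5 and 13.6 in mTEC-IV, 0 and 0 in mTEC-III, 2.33 and 1.56 in mTEC-II, with 0 and 0.533 in mTEC-I. Tas2r143, 241 bp upstream (chr6:42349932-42350060), had 18.7 and 17.3 in mTEC-IV, 0 and 1.02 in mTEC-III, 2.33 and 1.56 in mTEC-II, with 0 and 1.07 in mTEC-I. None of the 6 other libraries reached the lower mTEC-IV library in any of these peaks. Differences from the mean of the other 3 were 3.55 ± 0.54, 3.14 ± 0.54 and 3.39 ± 0.57, with limma adjusted p of 0.000139, 0.00031 and 0.000277. Counted against a floor of 3 tags over both libraries, the observed mean in mTEC-IV was at least 7.01-fold higher than in mTEC-II for Tas2r118 and at least 3.28-fold higher than in mTEC-III for Tas2r134. Such bounds allow for counting error in the empty population only and take the mTEC-IV mean as exact.

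Tas2r126 had 3 peaks within 1 kb. That at 764 bp upstream (chr6:42383703-42383837) had 9.34 and 17.8 scaled tags in mTEC-IV, 6.72 and 4.12 in mTEC-III, 0 and 7.003 in mTEC-II, with 10.5 and 10.1 in mTEC-I. Its mTEC-IV and mTEC-I libraries overlapped, and the difference from the mean of the other 3 was 1.25 ± 0.65 (limma adjusted p = 0.151). The peak 249 bp upstream had 14.4 and 9.97 in mTEC-IV, 0 and 0 in mTEC-III, 0 and 1.56 in mTEC-II, with 0 and 0 in mTEC-I. The peak 19 bp upstream had 4.31 and 3.67 in mTEC-IV and 0 in the other 6 libraries. These last peaks, like that of Tas2r118 at 324 bp upstream, with 3.59 and 12.6 in mTEC-IV, 0 and 1.02 in mTEC-III and 0 in the 4 libraries of mTEC-II and mTEC-I, were below the filter and not tested. For the peak 249 bp upstream of Tas2r126 the mean in mTEC-IV, taken as exact as above, was at least 8.43-fold higher than in mTEC-I and at least 3.18-fold higher than in mTEC-III. For that at 19 bp, with 13 read ends over all libraries, the bounds were 2.76-fold over mTEC-I, 1.42-fold over mTEC-II and 1.04-fold over mTEC-III.

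**Figure D2:**
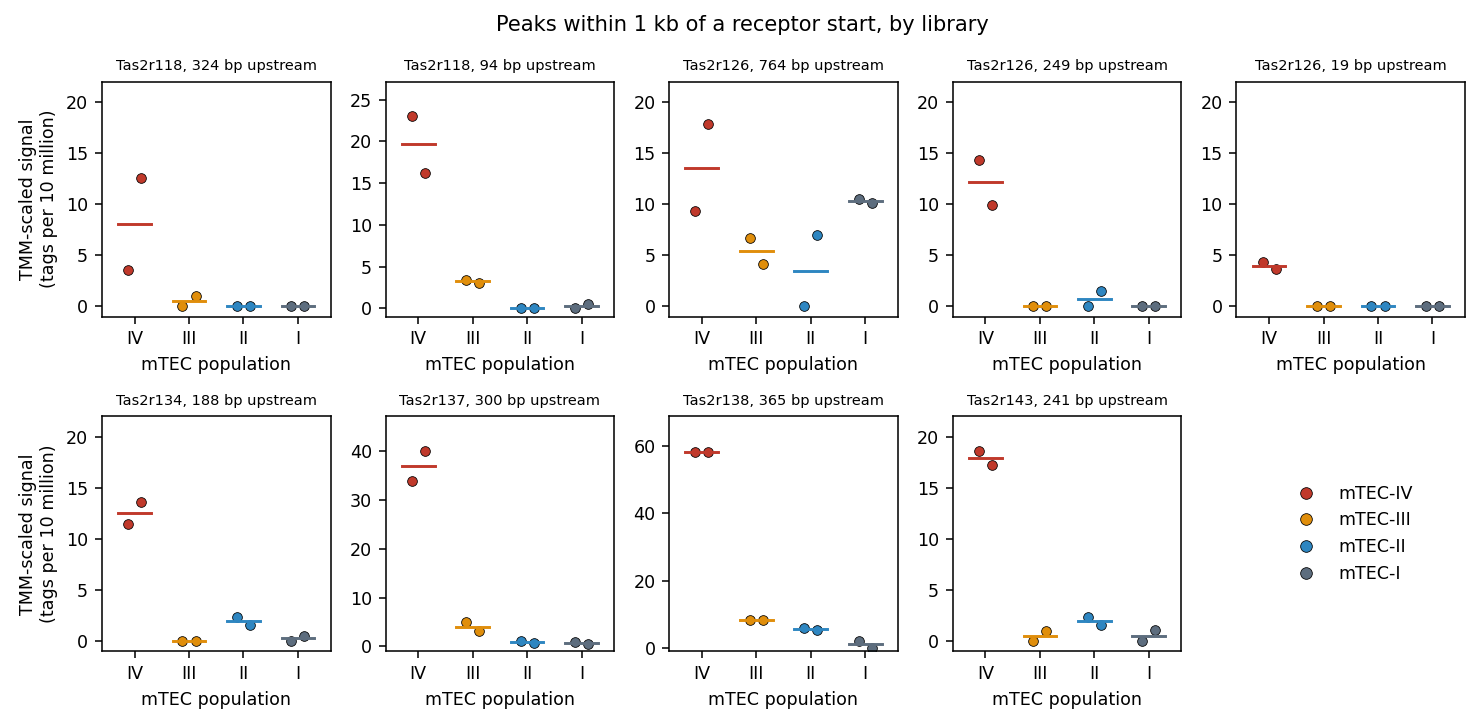
Accessibility of the 9 peaks within 1 kb of a start codon, in scaled tags per 10000000, by population (mTEC-IV, mTEC-III, mTEC-II and mTEC-I from left to right), with the y axis, which includes 0, scaled to the peak. Points are single libraries and lines are the mean of 2. In 8 of the 9 peaks both mTEC-IV libraries lie above the other 6, and in the peak 764 bp upstream of Tas2r126 they overlap with mTEC-I.

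In 8 of the 9 promoter peaks, tested or not, both mTEC-IV libraries lay above the other 6. Of all tested peaks, at any distance, 18.9% did so. The authors' own peak calling had found these 8 in mTEC-IV libraries and in no other, so the count gives no support of its own. Among the 6 tested, 5 were higher in mTEC-IV, where 8.25% of the 16185 tested peaks within 1 kb of any start were, and the same 5 were higher in each of the 3 pairs, where 1.05% were. Of the 5, the filter had let each pass through mTEC-IV alone. The promoter peak of Tas2r143, whose sum did not differ, was among these. It is the only peak of that gene within 1 kb. A sum over peaks within 1 kb alone (3.39, limma adjusted p = 0.00926) therefore repeats the result of this peak.

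Between 1 and 10 kb lay the tallest peaks of Tas2r118 and Tas2r126 and, for Tas2r137, a peak about as tall as that at its promoter. The peak of Tas2r118 at 3928 bp downstream of the start (chr6:23916036-23916229) had 58.9 and 53.5 scaled tags in mTEC-IV, 5.03 and 15.4 in mTEC-III, 4.67 and 3.11 in mTEC-II, with 2.63 and 1.07 in mTEC-I. It lay beyond the 900 bp coding sequence and was higher in mTEC-IV by 3.49 ± 0.50 (limma adjusted p = 9.17e-05). The peak of Tas2r137 at 7691 bp upstream (chr6:40433482-40433610) had 38.1 and 30.4 in mTEC-IV, 5.03 and 7.20 in mTEC-III, 0 and 0.774 in mTEC-II, with 0.436 and 0 in mTEC-I, a difference of 3.97 ± 0.54 (adjusted p = 7.18e-05). The peak of Tas2r126 at 2480 bp downstream (chr6:42386933-42387096) had 22.99 and 18.9 in mTEC-IV, 8.39 and 6.18 in mTEC-III, 4.67 and 1.56 in mTEC-II, with 0.436 and 0.533 in mTEC-I, a difference of 2.60 ± 0.53 (adjusted p = 0.00113). In each of these 3 peaks mTEC-III was nearest to mTEC-IV by mean, on 3 to 15 read ends per mTEC-III library. It was not called over mTEC-II in any of them. For Tas2r126 the pair of mTEC-IV and mTEC-III was not called (1.41, limma adjusted p = 0.131).

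The peak of Tas2r138 at 4831 bp upstream had 13.7 and 17.3 scaled tags in mTEC-IV, 13.4 and 6.18 in mTEC-III, 5.83 and 14.8 in mTEC-II, with 7.44 and 10.7 in mTEC-I, so that the populations overlapped (0.69, limma adjusted p = 0.262). The peak of Tas2r143 at 3625 bp upstream (chr6:42346505-42346719) had 20.1 and 19.9 in mTEC-IV, 33.6 and 38.1 in mTEC-III, 26.8 and 16.3 in mTEC-II, with 41.2 and 40.6 in mTEC-I. It was open in all 4 populations and was lower in mTEC-IV than in mTEC-I by a log2 difference of -0.99 (adjusted p = 0.0156), whereas against the mean of the other 3 it was not called (-0.62, adjusted p = 0.0667). The peak of Tas2r138 at 5758 bp downstream, in a LINE repeat of the Lx9 family, had 5.75 and 12.1 in mTEC-IV, 3.36 and 7.20 in mTEC-III, 3.50 and 0.774 in mTEC-II, with 0.436 and 0 in mTEC-I, and was not tested. Of the 6 tested peaks at 1 to 10 kb, 3 were higher and 1, that of Tas2r135, was lower in mTEC-IV, where 18.1% and 18.9% of all tested peaks at that distance were.

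**Figure D3:**
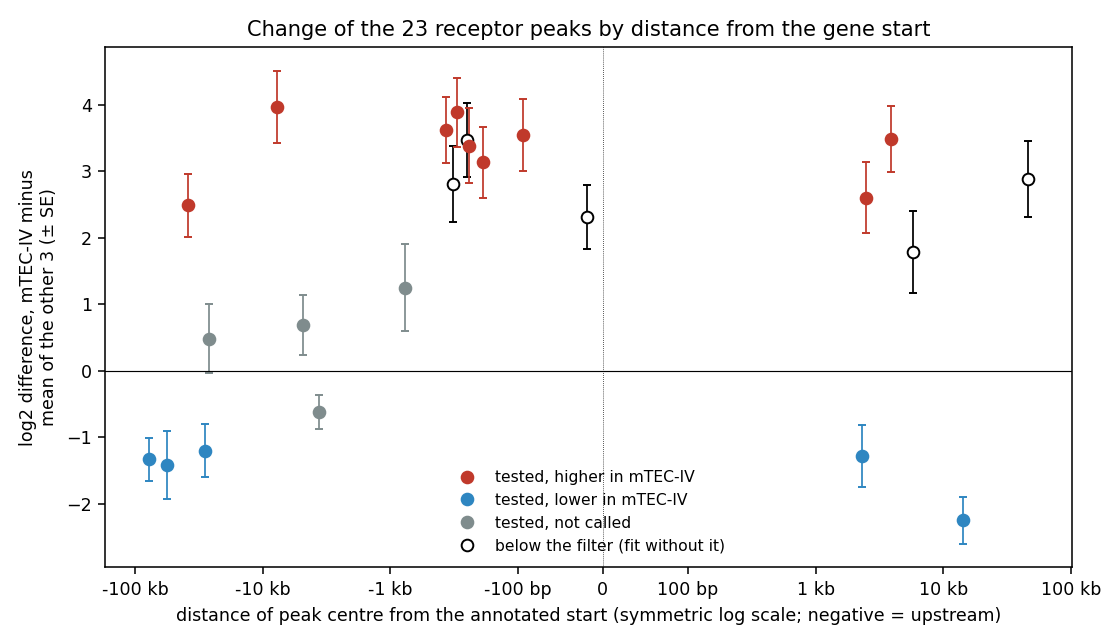
Log2 difference of mTEC-IV from the mean of the other 3 populations for the 23 peaks (y axis, bars give the SE) against the distance of the peak from the start codon in bp (x axis, symmetric log scale, upstream to the left). Filled points are the 18 peaks tested, and open points are the 5 peaks below the filter, from a fit without a filter. Positive differences gather near the start, and the negative ones lie at 2320 bp or more from it.

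Beyond 10 kb the direction was mostly the other one. The peaks of Tas2r118 at 28226, 55866 and 77166 bp upstream were highest in mTEC-I. That at 77166 bp (chr6:23997133-23997319) had 8.62 and 7.35 scaled tags in mTEC-IV, 16.8 and 24.7 in mTEC-III, 18.6 and 13.2 in mTEC-II, with 31.5 and 30.4 in mTEC-I, and was lower in mTEC-IV by a difference of -1.33 ± 0.32 (limma adjusted p = 0.00363). Those at 28226 and 55866 bp differed by -1.20 and -1.42 (adjusted p = 0.0261 and 0.0386), and the calls of the 3 peaks were lost in 7 of 21, 8 of 18 and, for the one at 77166 bp, 2 of 21 alternatives. In each of the 3 both mTEC-I libraries lay above all others, and mTEC-I was higher than the mean of the rest by 1.39, 1.56 and 1.12 in order of distance (adjusted p = 0.012, 0.0229 and 0.0118). The peak at 46069 bp downstream, not tested, went the other way, with 7.18 and 17.8 in mTEC-IV, 3.36 and 4.12 in mTEC-III, and 0 in the 4 libraries of mTEC-II and mTEC-I.

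This mixture shaped the sum of Tas2r118. Peaks beyond 10 kb made up 25.3% of its summed signal in mTEC-IV, 76.1% in mTEC-III, 88.7% in mTEC-II and 97.1% in mTEC-I. With peaks within 10 kb alone, mTEC-I was lower than the mean of the other populations by a log2 difference of -2.54 (limma adjusted p = 0.000315), whereas the sum over all peaks was not called there. The rank of mTEC-I as second for this gene thus came from peaks at 28 to 77 kb, which the nearest-gene rule gives to Tas2r118. A link between these peaks and the gene was not tested.

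Tas2r134 held the clearest opposition within 1 gene. The peak at 38388 bp upstream (chr2:51444551-51444736) had 28.7 and 26.2 scaled tags in mTEC-IV, 5.03 and 6.18 in mTEC-III, 4.67 and 3.89 in mTEC-II, with 3.50 and 2.13 in mTEC-I, a difference of 2.49 ± 0.47 (limma adjusted p = 0.000633). The peak at 14344 bp downstream (chr2:51497221-51497530) had 4.31 and 3.15 in mTEC-IV, 13.4 and 18.5 in mTEC-III, 26.8 and 17.1 in mTEC-II, with 27.6 and 28.8 in mTEC-I, a difference of -2.25 ± 0.35 (adjusted p = 0.000179). The groups did not overlap in either peak: mTEC-IV was above the other 6 libraries in the first and below them in the second. The peak at 26447 bp upstream had 5.75 and 11.5 in mTEC-IV, 3.36 and 6.18 in mTEC-III, 5.83 and 10.9 in mTEC-II, with 5.69 and 3.74 in mTEC-I, with no call (0.49, adjusted p = 0.505). Over all members, 1 of 6 tested peaks beyond 10 kb was higher and 4 were lower in mTEC-IV, where 20% and 26.4% of all tested peaks at that distance were.

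Both mTEC-IV libraries lay above the other 6 in 9 of the 18 tested peaks (18.9% of all tested peaks) and below them in 3 (14.5%), and in 4 of the 5 untested peaks they lay above. In each of the 3 pairs mTEC-IV was higher for 8 of the 18 tested peaks (7.1% of all) and lower for 1, the peak of Tas2r134 at 14344 bp (6.11%). The 9 peaks that were higher against the mean, and that lower one, passed in each alternative in which they were tested; stricter filters and fewer libraries left some of them untested. In a fit without the filter the 5 peaks below it were higher in mTEC-IV by 1.79 to 3.47, where 12188 of all 74090 peaks were higher. The authors' own peak calling had found each of the 5 in 1 mTEC-IV library and in no other. Their place in the merged set and their direction are therefore not separate facts.

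**Figure D4:**
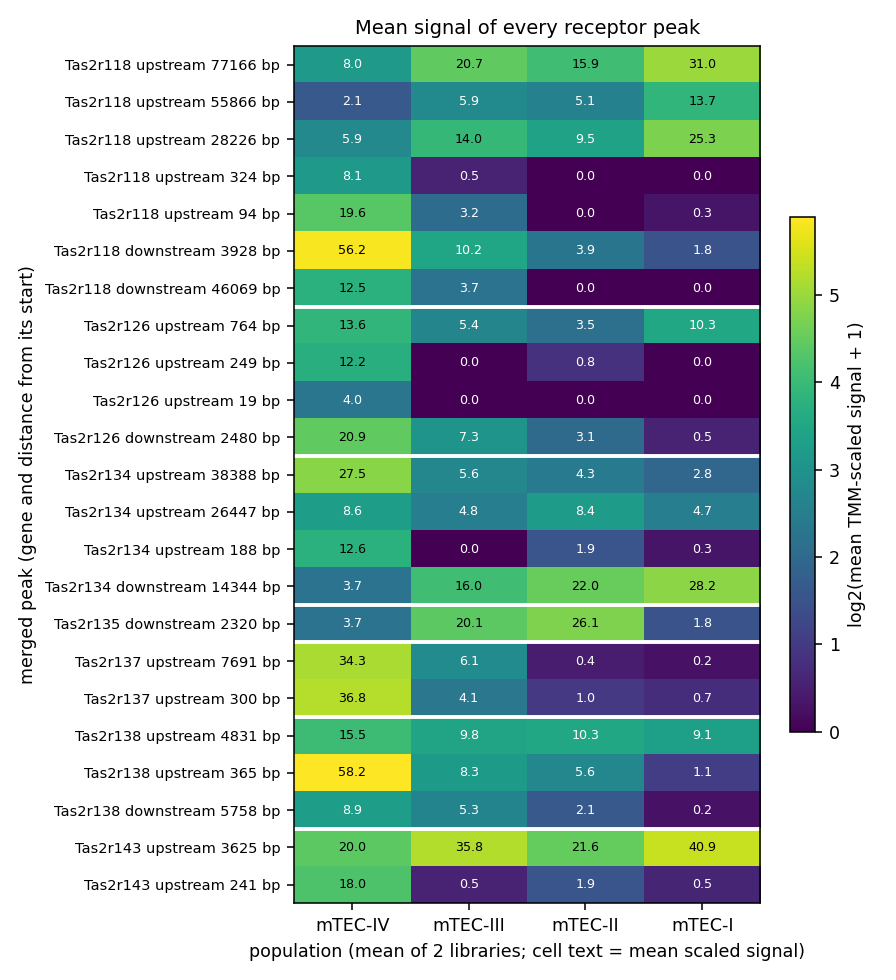
Mean accessibility of the 23 peaks (rows, grouped by gene, each named by its distance from the start codon) in mTEC-IV, mTEC-III, mTEC-II and mTEC-I (columns from left to right). The number in a cell is the mean of 2 libraries in scaled tags per 10000000, and the colour is log2 of that mean plus 1. Most rows are strongest in the mTEC-IV column, and the rows of Tas2r118 at 28226, 55866 and 77166 bp, the row of Tas2r134 at 14344 bp and the row of Tas2r135 are weakest or weak there.

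Tas2r135 had 1 peak, 2320 bp downstream of its start codon (chr6:42357759-42357938) and past its 966 bp coding sequence. It had 4.31 and 3.15 scaled tags in mTEC-IV, 26.8 and 13.4 in mTEC-III, 28.0 and 24.1 in mTEC-II, with 2.63 and 1.07 in mTEC-I. The libraries of mTEC-III and mTEC-II lay above those of mTEC-IV and mTEC-I with no overlap. The sum was lower in mTEC-IV than the mean of the other 3 by a log2 difference of -1.28 ± 0.46 (limma adjusted p = 0.0393), a call lost in 12 of 22 alternatives. The pairs were clearer: mTEC-IV was lower than mTEC-III by -2.09 (adjusted p = 0.0114) and than mTEC-II by -2.52 (adjusted p = 0.00233), and was not called against mTEC-I (0.78, adjusted p = 0.3). Its promoter window, which holds TTTGCAT, had no merged peak, although its neighbours Tas2r143 and Tas2r126 both had promoter peaks in mTEC-IV.

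The remaining comparisons were among mTEC-III, mTEC-II and mTEC-I and of each with the rest. In mTEC-III against the mean of the other 3, limma with Benjamini-Hochberg adjustment called none of the 7 sums (3.17% of all genes higher, 4.03% lower), with 2 at an unadjusted p under 0.05, while edgeR and DESeq2 on the recovered read ends each called 1, Tas2r135, as higher. With the authors' scaling to total tags 5 were called lower, by -0.65 to -1.41, but under that scaling the median of all genes was -0.82 and 75.5% of all genes were lower. In mTEC-II, Tas2r135 was higher by 2.09 (limma adjusted p = 0.00664), and Tas2r118, Tas2r126 and Tas2r137 were lower, by -1.20, -1.35 and -2.29 (5.44% of all genes higher, 5.13% lower). The mean of the other 3 includes mTEC-IV. Against mTEC-III or mTEC-I alone, mTEC-II was not called for Tas2r126 or Tas2r137 (limma adjusted p from 0.0862 to 0.731). The Tas2r126 call was lost with DESeq2 (adjusted p = 0.0765), with libraries thinned to equal depth (0.333), and by limma without library 1 or 2 of mTEC-IV (0.0726 and 0.0664) or without library 1 of mTEC-II (-0.86, adjusted p = 0.269). The Tas2r135 call was lost with thinning (limma adjusted p = 0.0572) and without library 1 or 2 of mTEC-II (0.0921 and 0.0568), and that of Tas2r137 with thinning (0.0572). From peaks within 1 kb alone, none of the 3 lower genes was called (adjusted p = 0.104 to 0.176). In mTEC-I, Tas2r135, Tas2r137 and Tas2r138 were lower, by -2.32, -2.71 and -1.57 (adjusted p = 0.000617, 0.000148 and 0.000225), and none was higher (19.6% of all genes lower, 16.5% higher). With thinned libraries the Tas2r135 call in mTEC-I was lost (-1.17, limma adjusted p = 0.187).

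Between mTEC-III and mTEC-I, 3 sums were higher in mTEC-III (12.8% of all genes): Tas2r135 by 2.87 (limma adjusted p = 0.000984), Tas2r137 by 2.57 (adjusted p = 0.00254) and Tas2r138 by 1.10 (adjusted p = 0.0234). The call of Tas2r138 was lost without mTEC-III library 1, without mTEC-I library 1 and without mTEC-I library 2, with differences of 0.996, 1.03 and 1.13. It was also lost with thinned libraries (1.03, limma adjusted p = 0.0919). With the authors' scaling the difference fell to 0.14 (limma adjusted p = 0.762), where the median of all genes was -0.98. Between mTEC-II and mTEC-I, Tas2r135 was higher in mTEC-II by 3.30 (adjusted p = 0.000313) and Tas2r118 was lower by -1.09 (adjusted p = 0.00276), where 12.8% of all genes were higher and 11.5% lower. Between mTEC-III and mTEC-II none of the 7 was called by limma, edgeR or DESeq2, with 2 at an unadjusted p under 0.05 in limma, and 0.362% of all genes were higher and 0.0962% lower. Among single peaks, 5 were higher in mTEC-III than in mTEC-I (12.1% of all peaks), and 4 of them were peaks that were highest in mTEC-IV: Tas2r118 at 3928 bp (1.86), Tas2r126 at 2480 bp (2.47), Tas2r137 at 7691 bp (2.55) and Tas2r138 at 365 bp (2.38).

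Peaks of other genes within 50 kb give the surroundings. None lay within 50 kb of the starts of Tas2r118, Tas2r134 and Tas2r138. Around Tas2r137 there were 6, of which 3 of 5 tested were higher in mTEC-IV (16.5% of all tested peaks). Among them was the peak 19118 bp downstream that is given to Prss37, with a difference of 3.10. These 3 passed the filter on low values only through their mTEC-IV libraries, so the count gives no support of its own. Tas2r143, Tas2r135 and Tas2r126 were each other's neighbours, and of the further peaks there the promoter peak of Epha1 averaged 25.01 ± 6.93 scaled tags in mTEC-IV, 38.3 ± 18.6 in mTEC-III, 44.1 ± 11.8 in mTEC-II and 67.6 ± 6.37 in mTEC-I (SD, n = 2) and was lower in mTEC-IV by -0.92 (limma adjusted p = 0.0131). The other peaks given to Epha1 and that given to Zyx were not called. Whether the receptor peaks change together with their surroundings was not tested.

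Over the 8 libraries, which share their depth and sort across all genes, the sums of Tas2r137 and Tas2r138 ran together (Pearson r = 0.955 of log2 scaled sums), as did those of Tas2r126 with Tas2r137 (r = 0.899) and with Tas2r138 (r = 0.889). Tas2r118 ran with Tas2r143 (r = 0.843) and against Tas2r135 (r = -0.73). Among the other 17678 genes tested, the 3 most like Tas2r137 were Lyzl1, 5430427M07Rik and Cd163 (r = 0.993, 0.992 and 0.992), and 163 genes exceeded 0.95. For Tas2r138 they were Nol4l, Ddx18 and Gm3086 (r = 0.993, 0.993 and 0.992), for Tas2r126 Ddo, Rexo1 and Abhd2 (0.991, 0.991 and 0.981) and for Tas2r118 Pde6a, Fam3c and Lamtor2 (0.978, 0.977 and 0.975). Tas2r134 was closest to 4930555K05Rik, Lman2 and Vezf1 (0.978, 0.977 and 0.975), Tas2r135 to Ttll9, Klrb1c and Runx3 (0.990, 0.990 and 0.985) and Tas2r143 to Susd1 and Scai (0.979 and 0.970). With 4 populations in 8 libraries such values are a description and many genes reach them.

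The other Tas2r genes of the table, 12 in number, are mostly those of the distal chromosome 6 cluster, with Tas2r119 on chromosome 15 and Tas2r144 on proximal chromosome 6. Of 10 tested, all 10 were higher in mTEC-IV (18.0% of all genes), with a median difference of 3.58 against 1.10 over the 7 dispersed genes, and 8 of 8 without Tas2r119 and Tas2r144. Their summed signal was 299.5 and 282.9 scaled tags in mTEC-IV, 52.0 and 33.9 in mTEC-III, 24.5 and 24.1 in mTEC-II, with 19.3 and 16.5 in mTEC-I. Of these 10 genes 9, all but Tas2r144, passed the filter on low values only through their mTEC-IV libraries, so that they could hardly have been called lower there and the count gives no support of its own.

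Of 20 genes of the taste transduction cascade, 18 had a peak and passed the filter, 10 were higher in mTEC-IV (18.0% of all genes) and none was lower, with a median difference of 0.61. Of the 18, 3 passed the filter only through their mTEC-IV libraries, so that these could hardly have been called lower there. The largest differences were those of Tas1r3, the shared subunit of the sweet and umami receptors (3.68), Calhm1, a channel that releases ATP from taste cells (3.67), Rgs21, a regulator of G protein signalling in taste cells (3.44), and Trpm5 (3.37), the limma adjusted p lying between 1.69e-07 and 0.000169. Trpm5 had 29.5 and 35.7 scaled tags in mTEC-IV, 1.67 and 6.16 in mTEC-III, 1.17 and 4.66 in mTEC-II, with 0.879 and 1.6 in mTEC-I. Gnat3, which encodes the alpha subunit of gustducin, had 85.5 and 77.1 in mTEC-IV, 6.72 and 20.6 in mTEC-III, 16.3 and 19.5 in mTEC-II, with 9.19 and 20.3 in mTEC-I. The mTEC-IV libraries of both genes stood above all others. The partners Gnb3 and Gng13 and the phospholipase Plcb2 were also higher. Gnb1, Itpr3, Trpm4, Pde1a, Scnn1a, Gnat1, Tas1r1 and Tas1r2 were not called, and Calhm3 and Gnat2 had no peak. The summed signal of the cascade was 1532 and 1532 in mTEC-IV, 953 and 938 in mTEC-III, 994 and 891 in mTEC-II, with 888 and 906. in mTEC-I

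**Figure D5:**
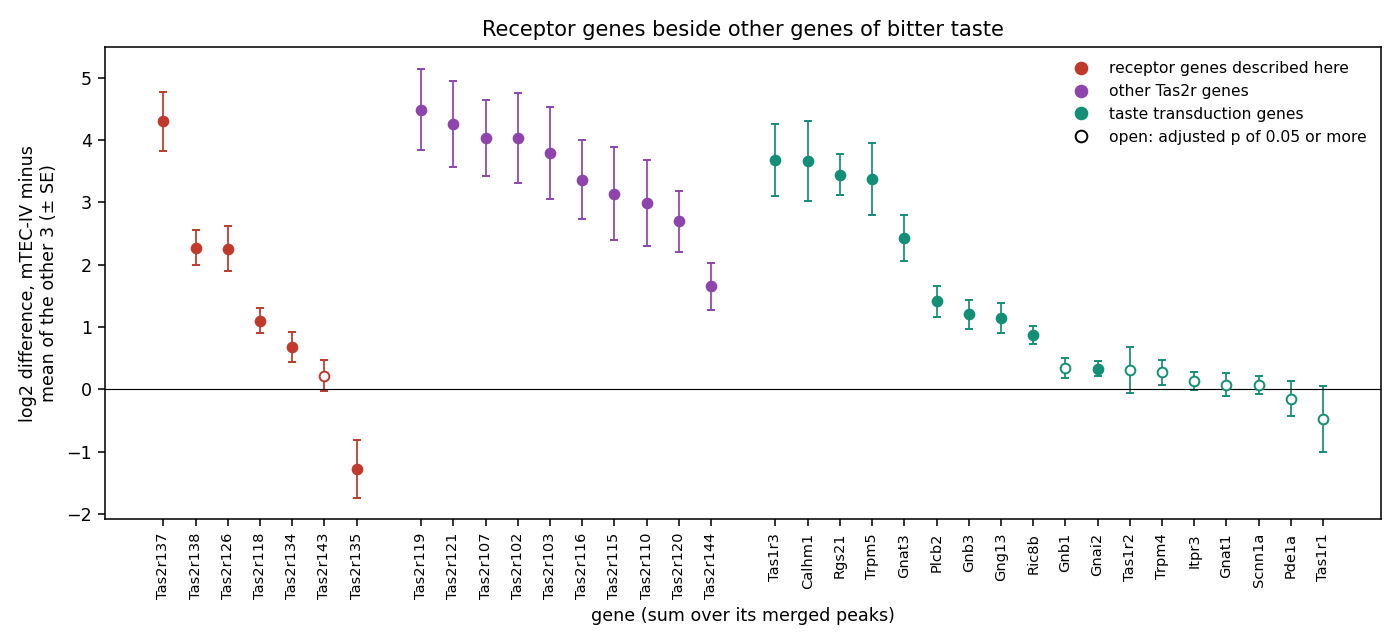
Log2 difference of mTEC-IV from the mean of the other 3 populations (y axis, bars give the SE) for the sums of the 7 dispersed receptors, the other Tas2r genes tested and the taste transduction genes (x axis). Filled points passed limma at an adjusted p under 0.05 and open points did not. Tas2r137 stands among the highest of the 3 groups, and Tas2r135 is lowest.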

How the data were processed

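ATAC-seq was deposited for 8 libraries of 4 sorted populations, grouped by sample title. Reads were handled with Picard 1.108, bcl2fastq 2.15.0.4 and HOMER on mm9, per the submitters' processing notes; an aligner is not given in the sources used here. HOMER found the peaks of each library, per the file headers (fragment length 300 bp, false discovery rate 0.001, 4-fold over the surrounding 10000 bp), and the authors deposited a merged peak table with a signal in tags per 10000000 of the library's total tags. The authors' peak score was not used. All deposited values (100%) were whole read ends, steps of 0.5 tags within 0.006 tags per 10000000.

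Signals were scaled by TMM factors (edgeR 4.0.16), summed per gene over all peaks the annotation gave it, and tested as log2(value + 1) with limma-trend (limma 3.58.1, R 4.3.3) in 1 fit over all 8 libraries (4 residual degrees of freedom), for features that reached 10 tags per 10000000 in 2 or more libraries. The +1 understates changes of low features. P-values were adjusted by Benjamini-Hochberg over all 17679 genes or 59943 peaks, with a threshold of 0.05. edgeR and DESeq2 1.42.0 on recovered read ends were alternatives. The script was tested on simulated data. A read end is worth 0.482 to 1.39 tags per 10000000, depending on the library. Replicate numbers did not pair libraries (correlation of deviations -0.011 to 0.028).

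Members and gene lists were chosen with earlier results of these data known. All members and their peaks are named, the 3 most correlated genes of each, and of each list up to 4 genes with the largest called change; a few further list genes were named after their values were seen. Of the genes chosen by these rules, 2 are not reported here. No genome of build mm9 was used, so peak sequences are not printed; promoter windows come from RefSeq.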

Additional observations from a re-analysis of the deposited data

How the results depend on the processing

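Over 13 counts of calls and their alternatives, 258 of 297 values stayed within 1.5 times the first count. Leaving out 1 library moved the member genes called in mTEC-IV against the rest between 3 and 6 (6 with all libraries), mTEC-III 0 to 1 (0), mTEC-II 2 to 4 (4), mTEC-I 2 to 3 (3), mTEC-IV over mTEC-III 1 to 6 (6), over mTEC-II 4 to 6 (5) and over mTEC-I 2 to 4 (4), member peaks 2 to 15 (14), taste transduction genes 6 to 11 (10) and the other Tas2r genes 1 to 10 (10). The lowest values came without an mTEC-IV library, where features that need both mTEC-IV libraries drop out of the test; with the same features tested, an alternative chosen after seeing the data, mTEC-IV over mTEC-III gave 1 without library 1 and 2 without library 2. The authors' scaling to total tags moved the median of all genes in mTEC-III against the rest to -0.82 and gave 5 calls there, all lower. In mTEC-I against the rest it gave 2 higher and 3 lower (0 and 3 otherwise). In mTEC-III over mTEC-II it gave 1 higher and 1 lower (0 otherwise). In mTEC-III over mTEC-I, where the median of all genes was -0.98, it gave 2 higher and 3 lower (3 and 0 otherwise). The 1 gene called in mTEC-III with TMM factors from promoter peaks, with TMM factors from gene sums (chosen after seeing the data), a pseudocount of 5, edgeR, DESeq2 and the replicate block was Tas2r135 (adjusted p = 0.0485 with the replicate block), and the replicate block moved no other count by over 1.5 times. Libraries thinned to equal depth left 1 call in mTEC-II against the rest and 1 in mTEC-III over mTEC-I. A filter at 20 tags left 9 member peaks and 6 other Tas2r genes. Sums within 10 kb left 1 call in mTEC-II over mTEC-I (2 otherwise) and 5 other Tas2r genes; sums within 1 kb left 0 in mTEC-II against the rest, 1 in mTEC-III over mTEC-I, 0 in mTEC-II over mTEC-I and 4 other Tas2r genes. Directions turned for Tas2r118 with sums within 10 kb (-2.54 in mTEC-I against the rest, 2.18 in mTEC-III over mTEC-I and 0.65 in mTEC-II over mTEC-I) and for Tas2r143 with the authors' scaling (-0.65 in mTEC-III against the rest) and with sums within 1 kb (3.72 in mTEC-IV over mTEC-I). Beyond the changed sums, the cause of these shifts was not tested. A count of 0 in 1 library allows up to 3 tags, or 2.89 to 8.32 tags per 10000000, counting error only.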
